A study of Zea mays with 6 samples.

Results

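NAC130 (Zm00001d008403) and NAC128 (Zm00001d040189) are maize transcription factor genes active in the endosperm, which stores the starch and protein of the kernel. They were chosen by their identifiers, as the 2 genes known from the study as the factors that the RNA interference line was made to lower, and both are among the 39179 genes of the deposited tables. The compared tissue was endosperm taken 20 days after pollination from inbred B73, with 3 wild-type libraries and 3 libraries from nacRNAi siblings (Ni4) that carry B73 as their inbred label too. RNA interference lowers transcripts that match a hairpin construct. The labels name the line after NAC genes and give neither the construct's sequence nor its promoter, and Ni4 is a single line.

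NAC proteins (named after NAM, ATAF and CUC) form a large family of plant transcription factors, which bind DNA through a conserved domain at their start and act in organ boundaries, stress responses, senescence and seed filling. NAC128 and NAC130 are known from the study as factors that bind the promoters of bt2, the gene of the small subunit of endosperm ADP-glucose pyrophosphorylase in starch synthesis, and of the 16-kDa gamma-zein, a storage protein. The files describe NAC128 as no-apical-meristem-related protein1 (nrp1), a gene known in maize as expressed from the maternal allele in endosperm. They describe NAC130 only by likeness to an Arabidopsis gene, as Arabidopsis NAC domain containing protein 87. Both genes carry the same GO terms, among them nucleus and sequence-specific DNA binding transcription factor activity.

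The NAC130 gene lies on chromosome 8 from 7619712 to 7621282 on the plus strand, a span of 1571 bases. The NAC128 gene lies on chromosome 3 from 31401124 to 31403248 on the minus strand, a span of 2125 bases. Positions are those of the files, whose genome build is not given in the sources used here.

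Gene-level counts totalled 55812999 to 69670876 per library, so counting error is small beside the spread between libraries. For NAC130 in wild-type replicate 1, 1110 CPM of the library total had a 95% Wilson interval of 1100 to 1120. CPM stands for counts scaled to a library of fixed size. This interval covers counting error only, since reads copied by PCR are not independent molecules. Whether replicate libraries came from different plants or ears is not labelled, so a p-value here reflects the spread among the sampled libraries alone, possibly a technical one. Of the endosperm markers, 27-kDa gamma-zein, sh2 and opaque2 summed to 101408 to 105534 CPM of library totals in wild type and 90076 to 95991 in nacRNAi. The 9 oleosin and caleosin genes, markers of embryo and oil bodies, were all detected and summed to 1221 to 1287 in wild type and 1086 to 1392 in nacRNAi. The 4 aleurone genes summed to 97.7 to 110 and 124 to 129, and the 17 green-tissue genes, 2 of them at 0 throughout, to 29.5 to 34.8 and 42.8 to 49.5. The 6 basal transfer layer genes summed to 1.12 to 11.8 and 0.779 to 14.0. The 8 genes described with embryo surrounding region or Esr summed to at most 1.98, and 4 of them were at 0 throughout. That pattern also took in Zm00001d050948, described as ethylene-responsive transcription factor ESR2, which its description does not tie to that region. After TMM scaling, on which most results below stand, the sums were lower in nacRNAi for the endosperm markers (117691 to 130894 against 76121 to 80575 CPM), the oil-body genes (1471 to 1548 against 895 to 1169) and the aleurone genes (118 to 136 against 102 to 109). The endosperm sum was nearly all 27-kDa gamma-zein, at 120783 CPM in wild type beside 2083 for sh2 and 672 for opaque2. Of these markers 27-kDa gamma-zein and opaque2 passed as lower in edgeR with TMM. The sh2 gene did not, at -0.05 (edgeR adjusted p = 0.626), and it passed as higher with library totals, at 0.46. In edgeR with TMM 8 of the 9 oil-body genes passed as lower, by -1.55 to -0.62, and 1 as higher. Over all tested genes 24.0% passed as lower and 23.2% as higher. With library totals 5 of the 9 passed as lower and 1 as higher, beside 9.0% and 50.5% of all tested genes. Of the 3 tested aleurone genes 2 passed as lower with TMM, at -0.29 and -0.21. All 3 passed as higher with library totals, where 50.5% of all tested genes did. Green-tissue sums overlapped on the TMM scale, at 35.5 to 43.2 against 35.2 to 41.8 CPM. They were nearly all Zm00001d015095, at 35.1 CPM in wild type and 32.7 in nacRNAi, which did not pass with TMM. Of the 7 tested green-tissue genes 2 passed as higher and 2 as lower with TMM, each with means of at most 3.9 CPM. The part of these tissues in the results was not tested. In bulk tissue, fewer cells of a type and less RNA per cell cannot be told apart.

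The first question was whether both factors were lowered in nacRNAi. NAC130 was, and NAC128 was not lowered beyond the spread between libraries. NAC130 fell 5.42-fold on average and in every nacRNAi library, while the change of NAC128 was close to that of the median gene.

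In wild type NAC130 had 71734, 64123 and 51315 reads, which is 1336, 1335 and 1054 CPM after TMM scaling (TMM matches the libraries on the bulk of their genes; CPM below is on this scale unless said otherwise). In nacRNAi it had 19765, 16223 and 15939 reads, or 238, 227 and 222 CPM. The lines did not overlap, wild-type replicate 3 was the lowest of its line, and the nacRNAi libraries lay close together. The mean was 1242 ± 162 CPM in wild type and 229 ± 8.2 CPM in nacRNAi (SD, n = 3 each). NAC130 fell 5.42-fold, a log2 fold change of -2.44 with a 95% interval of -2.68 to -2.20 (edgeR quasi-likelihood test, adjusted p = 4.22e-06). An exact permutation test (two-sided) gave p = 0.1, the lowest value that 3 against 3 libraries can reach. As background, 24.0% of the 22259 genes tested passed as lower in this comparison and 47.3% passed in either direction. The libraries of the lines failed to overlap in 29.5% of tested genes with nacRNAi lower, and in 59.2% in either direction. DESeq2 gave NAC130 the same -2.44, where 25.3% of tested genes passed as lower, 23.9% as higher and 49.2% in all.

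NAC128 had 16601, 17242 and 13212 reads in wild type, which is 309, 359 and 271 CPM. In nacRNAi it had 20611, 21446 and 20331 reads, or 248, 300 and 283 CPM. The nacRNAi libraries had more NAC128 reads than any wild-type library, but after TMM scaling the lines overlapped. The mean was 313 ± 43.8 CPM in wild type and 277 ± 26.3 CPM in nacRNAi (SD, n = 3 each). The log2 fold change of -0.18 had a 95% interval of -0.44 to 0.09 and did not pass (edgeR adjusted p = 0.245). Its exact permutation p was 0.4, two-sided, and its DESeq2 adjusted p was 0.225. The lower end of that interval lies far from the fall of NAC130.

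**Figure D1:**
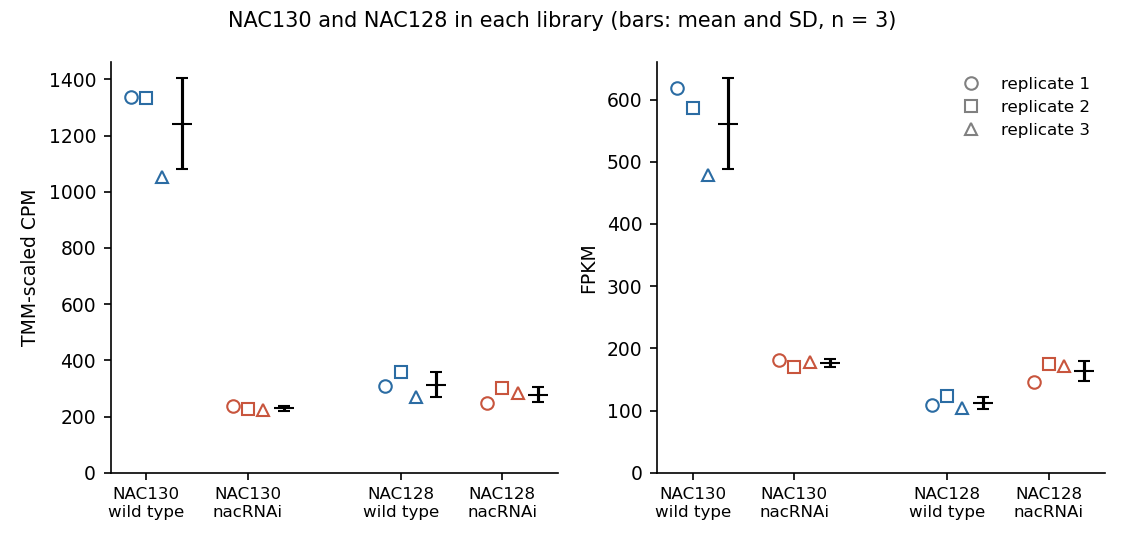
NAC130 and NAC128 in each library, as TMM-scaled CPM (left) and deposited FPKM (right), with the mean and SD of 3 libraries in black and replicates by symbol. NAC130 is at 1054 to 1336 CPM in wild type and 222 to 238 CPM in nacRNAi, while NAC128 overlaps between the lines in CPM and is higher in nacRNAi in FPKM.

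Which way NAC128 moved depended on the scale, and NAC130 fell on each scale tried. Scaling by library totals instead of TMM put the median gene at 0.52 on the log2 scale. On that scale NAC128 was higher in nacRNAi, at 257, 289 and 237 CPM in wild type and 296, 355 and 344 in nacRNAi, without overlap. Its log2 fold change was 0.35 (95% interval 0.11 to 0.58, edgeR adjusted p = 0.0168), where 50.5% of all tested genes passed as higher. NAC130 had a log2 fold change of -1.92 on that scale (edgeR adjusted p = 2.50e-06), where 9.0% of tested genes passed as lower.

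The deposited FPKM values, which are per length and per sequenced fragment, gave a like picture. NAC128 was at 109, 123 and 104 FPKM in wild type and 146, 175 and 171 FPKM in nacRNAi, again without overlap. On log2(FPKM + 1) its difference was 0.54 (95% interval 0.30 to 0.79, limma adjusted p = 0.00254), beside a median of 0.51 over all tested genes. Of the 16575 genes tested on that scale 66.4% passed as higher and 73.9% in either direction. In FPKM, 68.7% of genes had every nacRNAi library above every wild-type library and 8.25% the reverse. NAC130 was at 619, 586 and 479 FPKM in wild type and 182, 170 and 178 FPKM in nacRNAi, a difference of -1.66 on log2(FPKM + 1) (limma adjusted p = 4.50e-05), where 7.52% passed as lower. Set against the median gene, NAC130 was at -2.44 with TMM, -2.43 with library totals and -2.16 on log2(FPKM + 1). NAC128 was at -0.18, -0.17 and 0.04 against that median.

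**Figure D2:**
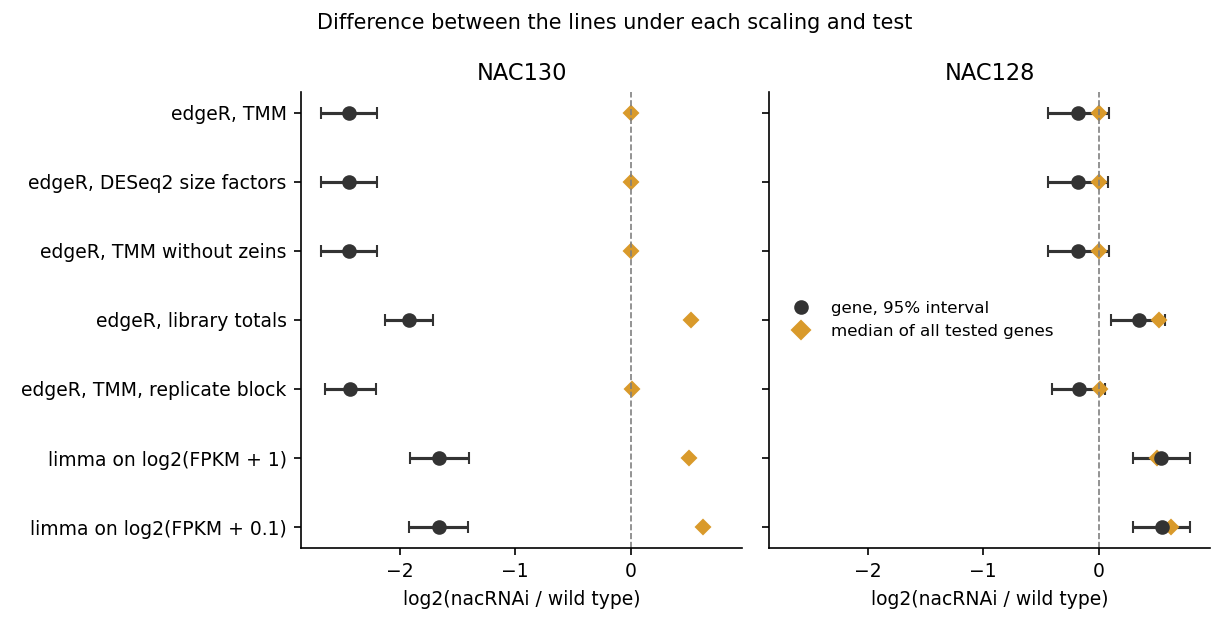
Log2 difference between nacRNAi and wild type for NAC130 (left) and NAC128 (right) under 7 scalings and tests, with 95% intervals, and the median of all tested genes as diamonds. NAC130 lies between -2.44 and -1.66 throughout, and NAC128 moves with the median gene, from -0.18 with TMM to 0.55 on log2(FPKM + 0.1).

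The ratio of the genes within a library needs no scaling between libraries, so it does not share this dependence. In counts, NAC130 had 4.32, 3.72 and 3.88 times the reads of NAC128 in the wild-type libraries. In the nacRNAi libraries it had 0.959, 0.756 and 0.784 times the reads. NAC130 was thus the gene with more reads in every wild-type library, and NAC128 in every nacRNAi library. The log2 ratio went from 1.99 ± 0.11 to -0.27 ± 0.18 (SD, n = 3 each), a difference of -2.26 with a 95% interval of -2.60 to -1.91 from the pooled spread of the 6 libraries. The 2 genes' fold changes therefore differed by 4.79-fold. That difference had an exact permutation p of 0.1, as low as the design allows, with every nacRNAi library below every wild-type library.

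Levels of different genes can be compared only per length, and FPKM gave the ratio on that scale. NAC130 stood at 5.70, 4.75 and 4.62 times the FPKM of NAC128 in wild type, and at 1.25, 0.970 and 1.04 times in nacRNAi. In wild type NAC130 was far above NAC128, at 561 ± 73.3 against 112 ± 10.2 FPKM (SD, n = 3). In nacRNAi the levels overlapped, at 176 ± 6.23 against 164 ± 15.7 FPKM, and the order of the 2 genes differed between libraries. With 3 pairs of values per line an exact sign-flip test cannot go below p = 0.25, so no test of the order within a line is given. The line difference of the log2 ratio in FPKM was -2.21 (95% interval -2.61 to -1.81, exact permutation p = 0.1, again the design's minimum).

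**Figure D3:**
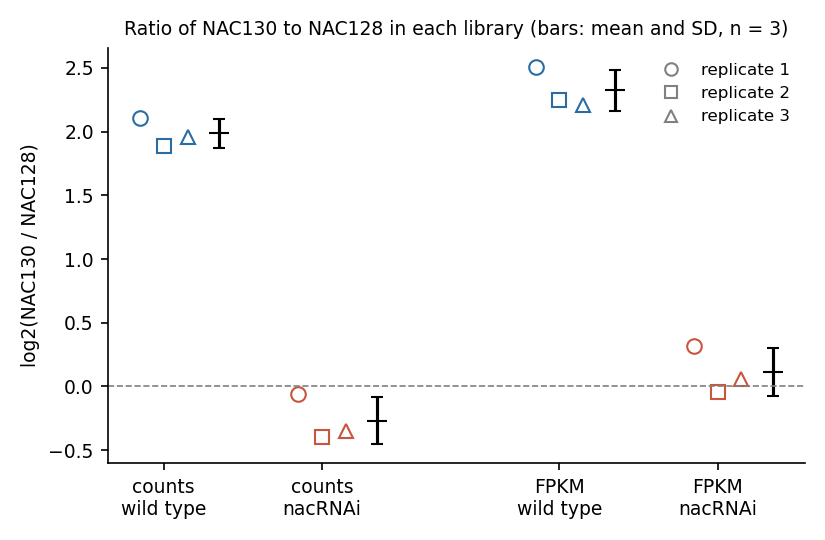
Log2 of the ratio of NAC130 to NAC128 in each library, from counts (left pair) and from FPKM (right pair), with the mean and SD of 3 libraries in black. The wild-type libraries lie at 1.89 to 2.51 and the nacRNAi libraries at -0.40 to 0.32, around equal levels.

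Reads per FPKM of NAC128 were 1.19 to 1.33 times those of NAC130 in the 6 libraries, and the ratio of the gene spans in the files is 1.35. Relative to the median of 14586 genes with at least 100 reads in each library, the log2 of reads per FPKM of NAC130 fell by 0.16, from -0.56 in wild type to -0.72 in nacRNAi. For NAC128 it fell by 0.12, from -0.22 to -0.34. Both shifts lie within the 5th to 95th percentile of the shifts of those genes, -0.40 to 0.42. How alike the 2 transcripts are was not measured here, so the share of reads that could be assigned to either gene is unknown. Counts per gene also hold every read assigned to the gene model, whatever part of it the read came from.

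The factors had a lower summed level in nacRNAi, where only NAC130 had fewer reads. Their summed level was 1645, 1693 and 1326 CPM in wild type and 486, 526 and 506 CPM in nacRNAi. The sum changed by -1.61 on the log2 scale, or -1.09 with library totals and -0.98 in FPKM (exact permutation p = 0.1 each, the design's minimum). NAC130 made up 81.2%, 78.8% and 79.5% of the reads of the pair in wild type and 49.0%, 43.1% and 43.9% in nacRNAi. The libraries of a line varied for both genes. In wild type replicate 3 was lowest for NAC130 and for NAC128. The coefficient of variation was 13.1% for NAC130 and 14.0% for NAC128 in wild type, where genes within 2-fold of their levels had medians of 7.88% and 5.73%. In nacRNAi it was 3.58% and 9.48%, beside medians of 5.06% and 5.16%.

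By FPKM NAC130 was 64th, 63rd and 84th of 39179 genes in the wild-type libraries. It ranked 292nd, 298th and 296th in the nacRNAi libraries. NAC128 was 419th, 380th and 515th in wild type and 393rd, 287th and 309th in nacRNAi. The deposited FPKM is 0 in both lines for some abundant genes, such as 27-kDa gamma-zein (120783 CPM in wild type) and Zein-alpha A20 (22704 CPM). Ranks by FPKM place such genes last. By counts NAC130 was 60th, 60th and 74th of all genes in wild type and 282nd, 302nd and 307th in nacRNAi. Among the 1893 genes with the GO term for sequence-specific DNA binding transcription factor activity, NAC130 ranked 1st by FPKM in every wild-type library and 7th, 8th and 6th in nacRNAi. NAC128 ranked 5th, 6th and 7th of them in wild type and 10th, 6th and 8th in nacRNAi. By counts NAC130 was also 1st of these genes in wild type, and 6th in each nacRNAi library. Below it in wild type came a zinc finger CCCH protein gene (Zm00001d022494) at 256 ± 38.4 FPKM and opaque2, a bZIP activator of zein genes, at 253 ± 75.1 FPKM (SD, n = 3). No test of that order was made.

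Among the 131 NAC family genes of the files, NAC130 was 1st by FPKM in each wild-type library, where NAC128 was 2nd, 3rd and 2nd. In nacRNAi NAC130 was 1st, 2nd and 1st and NAC128 2nd, 1st and 2nd. By counts, which are not per length, NAC130 was 1st in each wild-type library and 3rd in each nacRNAi library, and NAC128 2nd in wild type and 2nd, 1st and 1st in nacRNAi. The pair made up 66.2%, 61.7% and 61.2% of the summed FPKM of the family in wild type, and 36.0%, 37.5% and 36.5% in nacRNAi. The share of NAC130 went from 56.3%, 51.0% and 50.3% to 20.0%, 18.4% and 18.7%, and that of NAC128 from 9.89%, 10.7% and 10.9% to 16%, 19.0% and 17.9%. By mean FPKM over all 6 libraries of both lines, the other 3 of the 5 highest NAC genes were Zm00001d042288, Zm00001d010227 and Zm00001d042609. Zm00001d042288, described as NAC domain-containing protein 68, was at 107, 127 and 82.5 FPKM in wild type and 13.4, 16.8 and 21.8 FPKM in nacRNAi. Its log2 fold change in counts was -3.55 (SE 0.22, edgeR adjusted p = 6.76e-05). Zm00001d010227 was at 0.22 (edgeR adjusted p = 0.0194) and Zm00001d042609, described as NAC domain-containing protein 48, rose by 1.28 (edgeR adjusted p = 2.75e-05). In wild type the FPKM of NAC128 and of Zm00001d042288 overlapped, so their order there is not set.

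**Figure D4:**
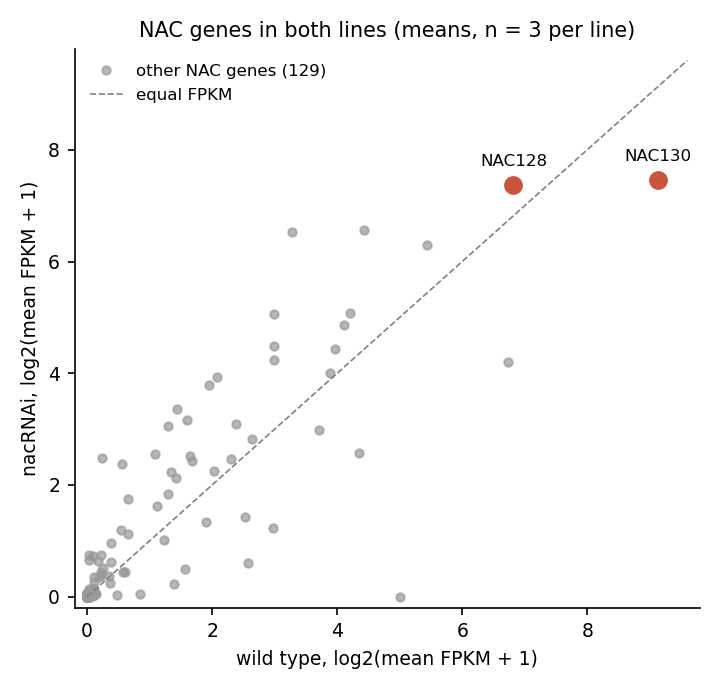
Mean FPKM of NAC family genes in wild type and nacRNAi, on log2(FPKM + 1) axes, with NAC130 and NAC128 in red and the 129 other NAC genes in grey. NAC130 is the rightmost point and lies below the line of equal FPKM, at 561 and 176 FPKM, while NAC128 lies just above it, at 112 and 164 FPKM.

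Of the 129 other NAC genes 59 were expressed enough to be tested, and 21 rose and 15 fell, with a median log2 fold change of 0.29. Those shares, 35.6% and 25.4%, stand beside 23.2% higher and 24.0% lower over all tested genes. With library totals 32 were higher (54.2%, beside 50.5% of all genes) and 12 lower (20.3%, beside 9.0%), with a median of 0.79 beside 0.52 over all genes. The members with the smallest adjusted p were Zm00001d011555 at -3.70, NAC domain containing protein 84 (Zm00001d011969) at -2.82, NAC domain-containing protein 21/22 (Zm00001d041472) at 4.19 and the SNAC1-type gene Zm00001d034601 at 1.46.

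The genes whose promoters the factors are known to bind had larger fitted falls than NAC130, a difference that was not tested. The bt2 gene (Zm00001d050032) had 2391, 2331 and 2522 CPM in the wild-type libraries but only 11.5, 10.8 and 11.4 CPM in the nacRNAi libraries, without overlap. It changed by -7.75 in log2 (SE 0.09, edgeR adjusted p = 1.05e-08). The other target, 16-kDa gamma-zein, was taken by its ID, Zm00001d005793, which the files describe as Zein-beta. Its level went from 57882 ± 3440 to 1494 ± 166 CPM (SD, n = 3), a log2 fold change of -5.28 (SE 0.13, edgeR adjusted p = 5.39e-07). These genes were picked with their falls known, so their count of 2 of 2 is a description.

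Wider storage lists moved beside the factors as follows. Of 18 tested zein genes 17 fell, and the 22-kDa alpha-zein 5 gene did not pass. That is 94.4%, beside 24.0% over all tested genes. Their median was -1.35, and 13 passed as lower with library totals (72.2%, beside 9.0%). The smallest adjusted p were those of 16-kDa gamma-zein, 50-kDa gamma-zein (-2.4), Zein-alpha 19D1 (-2.54) and 18-kDa delta-zein (-1.78). The 27-kDa gamma-zein was at -0.67 (edgeR adjusted p = 5.83e-04), which did not pass with library totals, at -0.15 (edgeR adjusted p = 0.166). Counting may split reads among near-identical alpha-zein copies, so single alpha-zein values are uncertain. The floury2 gene (Zm00001d049243), whose description lacks the word zein, is not in this list and was at -2.4 (edgeR adjusted p = 2.33e-05). Of 31 starch synthesis genes 23 were tested, and 5 rose and 6 fell, with a median of -0.02. These shares of 21.7% and 26.1% are near the 23.2% and 24.0% of all tested genes. The levels differed: the 5 that rose had wild-type means of 0.411 to 26.8 CPM, and the 6 that fell 69.1 to 2415 CPM. Of the other abundant genes, starch phosphorylase1, at 446 CPM in wild type, did not pass, at -0.19 (edgeR adjusted p = 0.0851). Besides bt2, Starch synthase I was at -1.40, a granule-bound starch synthase gene (Zm00001d033937) at -0.79 and the pullulanase-type debranching enzyme (Zm00001d004438) at -1.28. The sh2 gene of the large pyrophosphorylase subunit was at -0.05 (edgeR adjusted p = 0.626). With library totals the starch median was 0.49, with 12 higher (52.2%, near the 50.5% of all genes) and 4 lower (17.4%, beside 9.0%). On that scale sh2 passed as higher, at 0.46 (edgeR adjusted p = 0.0031).

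Among 9 endosperm regulator and opaque genes 4 fell and the other 5 did not pass. The 44.4% that passed, all as lower, stands beside 24.0% of all tested genes as lower and 47.3% in either direction. Their median of -0.38 became 0.13 with library totals, where 2 were higher (22.2%, beside 50.5% of all genes) and 3 lower (33.3%, beside 9.0%). The 4 that fell were opaque2 at -0.96, opaque endosperm1, a myosin, at -1.81, opaque endosperm10, a protein body protein, at -2.10 and viviparous-1, a B3-type regulator of seed maturation, at -0.76. The last did not pass with library totals, at -0.25 (edgeR adjusted p = 0.240).

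**Figure D5:**
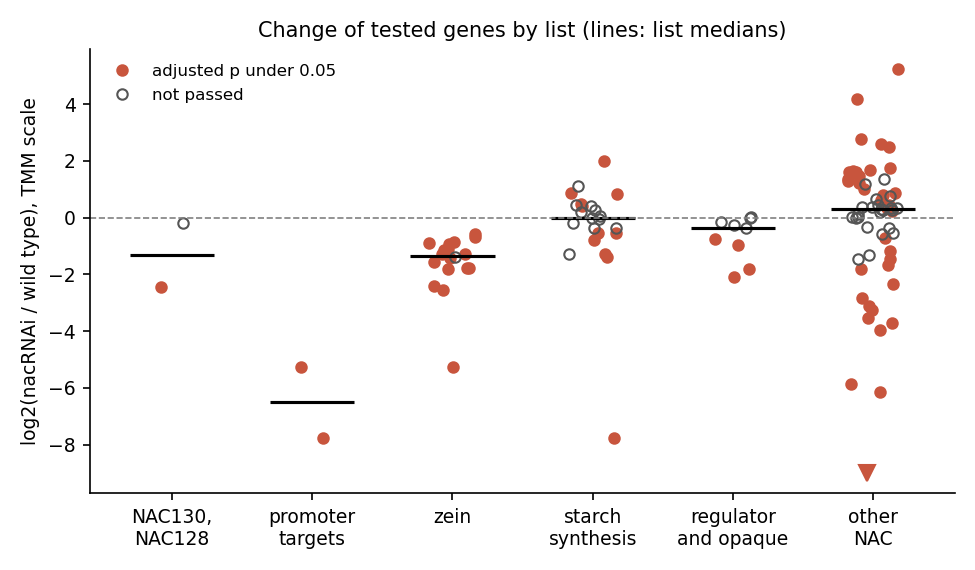
Log2 fold changes on the TMM scale of the tested genes by list, filled where the edgeR adjusted p was under 0.05, with the median of each list as a line. NAC130 at -2.44 lies above both promoter targets, at -5.28 and -7.75, which are drawn again in the zein and starch lists. The triangle marks a NAC gene with no nacRNAi read, whose fitted value lies below the axis.

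Across the 6 libraries, the profiles closest to NAC130 were those of genes with about the same fall. The measure was the root mean square difference between log2 CPM profiles, each centred on its own mean, over 2450 genes with a description and a mean of at least 50 CPM. The nearest 5 were floury2, a 22-kDa alpha-zein gene (Zm00001d049243), at 0.093, the 50-kDa gamma-zein at 0.106, autophagy 8e (Zm00001d049405), a ubiquitin-like autophagy protein, at 0.116, a patatin-like lipid hydrolase gene (Zm00001d042504) at 0.118 and a galactose mutarotase-like gene (Zm00001d039066) at 0.127. Floury2 went from 28484 ± 5070 to 5412 ± 552 CPM (SD, n = 3) and autophagy 8e from 352 ± 21.4 to 71.5 ± 6.96 CPM. Their log2 fold changes were -2.4 and -2.3. Nearest to NAC128 were an expressed protein (Zm00001d039001) at 0.043, Basic transcription factor 3 (Zm00001d048526) at 0.053, a calreticulin gene (Zm00001d019283), an endoplasmic reticulum chaperone, at 0.056, chaperonin10 (Zm00001d052101) at 0.069 and ribosomal protein S25 (Zm00001d049933) at 0.079. Of these 5, chaperonin10 at -0.27 (edgeR adjusted p = 0.0451) and ribosomal protein S25 at -0.25 (edgeR adjusted p = 0.0261) passed as lower, and all 5 passed as higher with library totals. Over all tested genes 24.0% passed as lower with TMM and 50.5% as higher with library totals. Since the 5 were picked for a profile like that of NAC128, their count is a description. With 2 lines, such a likeness mostly states a like difference between them.

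In the order of all 22259 log2 fold changes, NAC130 was the 637th from the lowest and NAC128 the 8902nd. Among the 400 genes with a mean of at least 200 CPM, NAC130 was the 8th from the lowest and NAC128 the 253rd. By CPM lost between the means, NAC130 with 1013 CPM was 35th.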

How the data were processed

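Raw gene counts and, in a separate table, FPKM values for the 6 libraries are as the authors deposited them. The sources used here do not give the aligner, counter, genome build, annotation or strand setting. No library column was left unmapped (0 columns). FPKM is scaled to gene length and fragment number, as the authors deposited it, and is 0 for some genes with many reads.

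Counts were filtered with filterByExpr, scaled by TMM and tested with edgeR 4.0.16 (quasi-likelihood, robust, line as the only term) in R 4.3.3, adjusted by Benjamini-Hochberg over 22259 genes with a threshold of 0.05. SEs were derived from the F statistic and the fold change, and intervals (95%) use its degrees of freedom. FPKM values of at least 1 in 3 libraries were tested with limma 3.58.1 on log2(FPKM + 1), which understates the change of low genes. DESeq2 1.42.0 was an alternative. On simulated counts for this comparison (21722 genes) edgeR recovered 99% of 100 genes changed by 1 log2 unit, and limma on log2(FPKM + 1) recovered 89% (15462 genes). Every simulated gene had the same dispersion (spread beyond counting error), and few genes changed, as many up as down. These shares thus check that the code runs as meant and do not give the power in the real libraries.

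The interval of the ratio's difference is Student's with the spread pooled over 6 libraries. A limma fit of all genes relative to NAC128 gave the same difference, but its p-value is not given, since the error of NAC128 is shared by every gene in it.

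Wild-type and nacRNAi replicates share the numbers 1 to 3. The labels tie no meaning to them. Alternatives were other scalings, filters and tests, the replicate number as a block, and leaving out each library in turn. Replicate libraries differed by more than sampling noise in each pair (chi-square per degree of freedom 25.8 to 49.9).

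The members and lists were chosen with earlier results of these data known. Named genes are the members, the promoter targets, the 5 nearest profiles of each member, the 4 genes per list that had the lowest adjusted p, the 5 NAC genes with the highest FPKM, 3 tested neighbours on each side, and sh2, opaque2 and 27-kDa gamma-zein. NAC130, NAC128, bt2, sh2 and gamma-zeins were identified by gene ID. Protein and promoter sequences were not used here. Other steps used scipy 1.17.1, pandas 2.3.3, numpy 2.4.6, matplotlib 3.10.9 and Python 3.11.15.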

Additional observations from a re-analysis of the deposited data

How the results depend on the processing

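NAC130 passed as lower under every alternative run, with log2 fold changes from -2.45 to -1.66 and, with 1 library left out, from -2.54 to -2.38. NAC128 did not pass in edgeR and DESeq2 with size-factor scaling, from -0.19 to -0.16 under other filters, scalings and tests. It was -0.07 without wild-type replicate 2 and -0.26 without wild-type replicate 3, where the unadjusted p was 0.0381 and the edgeR adjusted p 0.0797. It reversed to 0.35 with library totals, 0.54 on log2(FPKM + 1) with and without a filter, and 0.55 on log2(FPKM + 0.1). The shift of the median gene in those settings was 0.52, 0.51, 0.22 (no filter) and 0.63.

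The line difference of the log2 ratio was -2.26 to -2.20 under the alternatives and -2.36 to -2.19 with 1 library left out. With 2 against 3 libraries the exact p cannot go below 0.2. The summed level was -1.61 to -0.98, and -1.72 to -1.55 with 1 library left out. The total called in each list stayed within 1.5 times under its alternatives, but its split did not: with library totals the genes called higher went from 5 to 12 for starch, from 21 to 32 for other NAC genes and from 0 to 2 for regulators (3 on log2(FPKM + 1)). Genes called over the transcriptome numbered 10519, but 6992 at an adjusted p under 0.01 and 3926 with at least a 2-fold change, and 8525 to 9714 with 1 library left out. With library totals 13237 were called, 11233 of them higher, against 5171 of 10519 with TMM.

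The replicate numbers gave no sign of pairing: the correlations of deviations between same-numbered libraries were 0.011, -0.049 and -0.103. Between differently numbered libraries they were -0.095 to 0.129. With 3 libraries per line these values cannot exclude a batch shared by number. With the replicate block NAC130 was at -2.43 and NAC128 at -0.17 (edgeR adjusted p = 0.189), the ratio difference was -2.26, and 9273 genes were called. Depth limits none of the member values.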

Other observations

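Some tested neighbours of the pair share descriptions. On the 3′ side of NAC130, on the plus strand of chromosome 8, the next tested genes were an iron-sulfur assembly protein gene (IscA-like 1, Zm00001d008405) and a pfkB-like carbohydrate kinase gene (Zm00001d008406), 126709 and 210309 bases away. On the 3′ side of NAC128, on the minus strand of chromosome 3, genes with the same descriptions, Zm00001d040185 and Zm00001d040183, stood in the same order 353843 and 420914 bases away, after an acyl-transferase gene (Zm00001d040188). The IscA-like genes did not pass, at -0.10 (edgeR adjusted p = 0.534) and -0.55 (edgeR adjusted p = 0.306). The pfkB-like gene near NAC130 was at -0.76 (edgeR adjusted p = 0.00306), which did not pass with library totals, at -0.25 (edgeR adjusted p = 0.133), and the one near NAC128 at 0.08 (edgeR adjusted p = 0.908). Next on that side of NAC130, Protein RER1B (Zm00001d008407) was at -0.57 (edgeR adjusted p = 4.15e-04), which did not pass with library totals. On its 5′ side Zm00001d008396 was at -1.05 (edgeR adjusted p = 4.35e-05) and Zm00001d008398 at -0.06 (edgeR adjusted p = 0.937). There Zm00001d008397, at only 0.584 CPM in wild type, was at -3.79 (edgeR adjusted p = 0.00619). The acyl-transferase gene near NAC128, at only 0.6 CPM in wild type, was at -4.39 (edgeR adjusted p = 0.00169). On the other side of NAC128 its nearest tested neighbour, a hydroxyproline-rich glycoprotein gene (Zm00001d040190), rose from 63.6 ± 3.83 to 126 ± 12.1 CPM (SD, n = 3), or 0.98 in log2 (edgeR adjusted p = 8.39e-05). Beyond it Zm00001d040191 was at -0.01 (edgeR adjusted p = 0.899) and Zm00001d040192 at 0.72 (edgeR adjusted p = 0.0068). Over all tested genes 24.0% passed as lower and 23.2% as higher.

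Among other NAC genes, named after their values were seen, NAC87 (Zm00001d039004) had 1535, 2169 and 1673 reads in wild type and no read in any nacRNAi library. At a floor of 3 reads per library, which is 0.0419 CPM, it was at least 859-fold lower. The files give the description of NAC130 to 2 other genes. Zm00001d028995 had 474, 638 and 406 reads in wild type and 171, 124 and 159 in nacRNAi, or -2.34 in log2 (edgeR adjusted p = 1.04e-04). Zm00001d052390 had 1 read in each wild-type library and 80, 63 and 43 reads in nacRNAi.

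Where NAC130 had led the transcription factor genes in wild type, the zinc finger CCCH gene Zm00001d022494 led in nacRNAi, at 442 ± 12.9 FPKM, followed by Inducer of CBF expression 2 (Zm00001d042263) at 382 ± 19.7 FPKM (SD, n = 3). In wild type these genes were at 256 ± 38.4 and 112 ± 15.3 FPKM. FPKM of most genes was higher in nacRNAi, and the differences of these genes were not tested here.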
